A study of Mus musculus with 12 samples.

Results

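The genes described here encode 10 core proteins of the Polycomb repressive complexes, Ezh1, Ezh2, Eed, Suz12, Bmi1, Ring1, Rnf2, Cbx2, Cbx7 and Cbx8, and were chosen by symbol among the 24062 gene symbols of a mouse heart count table. Each symbol was found once, and all 10 genes passed the filter on low counts in every comparison, with at least 103 reads in each library. Whole hearts of 12 mice were sequenced after poly(A) selection, one library per mouse, in 4 groups of 3. The adult mice, 2 months old, were WT or KI/KI, that is, homozygous in every cell for a knock-in of the Lemd2 c.T38>G substitution. The newborn mice, at postnatal day 1 (P1), were Lemd2-floxed controls, which carry loxP sites around Lemd2 exon 1 and no Cre, or cKO mice, which carry the same floxed allele and a Cre driven by the Myh6 promoter and so lose Lemd2 in cardiomyocytes only. Lemd2 encodes a protein of the inner nuclear membrane that binds lamins and chromatin.

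Polycomb proteins keep developmental genes silent. Polycomb repressive complex 2 (PRC2) methylates a lysine on the tail of histone H3 through its catalytic subunit, Ezh2 or its paralogue Ezh1, which works only when bound to Eed, the reader of the methyl mark, and to Suz12, the scaffold. Polycomb repressive complex 1 (PRC1) attaches ubiquitin to histone H2A through the ligases Ring1 and Rnf2, assisted by a Pcgf protein such as Bmi1, and its Cbx subunits dock it on the mark that PRC2 leaves. Ezh2 is the form of dividing and embryonic cells and Ezh1 that of resting ones, and heart muscle cells stop dividing in the first days after birth. Since whole hearts were used, fewer cells of a type and less RNA per cell cannot be told apart in any of the values that follow.

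The promoters of the catalytic pair and of their scaffold are printed first, because these genes had different directions between newborn and adult hearts. The windows run from 250 bases before to 20 bases after the RefSeq transcription start on GRCm38.p6, 5′ to 3′ on the strand of the gene, and lie at chr11:101226444-101226713 (minus strand) for Ezh1, chr6:47595011-47595280 (minus strand) for Ezh2 and chr11:79992856-79993125 (plus strand) for Suz12. Capitals mark matches to 2 spellings of the E2F site, TTTGGCGC and TTTCCCGC, and to the CCAAT box, CCAAT, each searched on both strands, so that a CCAAT box on the other strand reads ATTGG.
Ezh1: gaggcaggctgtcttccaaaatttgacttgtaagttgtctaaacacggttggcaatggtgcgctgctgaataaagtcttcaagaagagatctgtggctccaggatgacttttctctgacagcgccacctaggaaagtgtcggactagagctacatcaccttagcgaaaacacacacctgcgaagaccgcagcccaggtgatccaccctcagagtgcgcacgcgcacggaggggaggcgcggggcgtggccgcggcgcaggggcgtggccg
Ezh2: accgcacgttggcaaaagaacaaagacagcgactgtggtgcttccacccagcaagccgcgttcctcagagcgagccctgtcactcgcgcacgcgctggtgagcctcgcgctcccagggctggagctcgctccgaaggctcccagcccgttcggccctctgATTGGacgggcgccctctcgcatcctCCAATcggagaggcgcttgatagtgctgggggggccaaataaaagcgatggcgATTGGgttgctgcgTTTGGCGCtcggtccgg
Suz12: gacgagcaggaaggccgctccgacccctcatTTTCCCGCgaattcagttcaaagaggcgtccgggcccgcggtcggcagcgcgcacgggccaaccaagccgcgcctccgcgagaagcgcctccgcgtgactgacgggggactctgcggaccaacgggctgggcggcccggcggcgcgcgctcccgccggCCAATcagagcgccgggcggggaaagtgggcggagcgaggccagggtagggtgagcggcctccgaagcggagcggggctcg
A window was matched for 9 of the 10 genes, all but Cbx2. That of Cbx7, at chr15:79932627-79932896 (minus strand), belongs to a start inside the gene span of chr15:79915807-79971119. Ezh2 held 1 E2F match, whose first base is position 4 of the transcript, and 3 CCAAT matches that begin 90, 64 and 11 bases before the start. Suz12 held 1 E2F match beginning 219 bases before the start and 1 CCAAT match 61 bases before it. Cbx7 held 1 CCAAT match and Cbx8 held 2, while these letters were not in the windows of Ezh1, Eed, Bmi1, Ring1 and Rnf2. Among all 32851 windows of the same length, 1.41% held an E2F match and 35.4% a CCAAT match. A match is a description of the sequence and not a shown binding site.

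Library totals ranged from 37063669 to 44789753 counts. Values are given as CPM, counts scaled to a common library size by edgeR's TMM method over all 12 libraries. The detection floor, set at 3 counts and covering only the error of counting, lay at 0.0599 CPM in the deepest library and 0.0965 in the shallowest. Lemd2 was at 32.0, 34.8 and 32.9 CPM in WT hearts and at 25.6, 25.2 and 24.8 in KI/KI hearts. In the P1 groups, floxed hearts had 24.3, 25.0 and 25.4 CPM of Lemd2 and cKO hearts 6.59, 13.1 and 11.4 CPM. The cKO heart with the least Lemd2, replicate 4, was also the only one without Y-linked transcripts, so sex was not balanced between the P1 groups. Markers of heart muscle cells summed to between 65767 and 73766 CPM in WT, 47126 and 65097 in KI/KI, 33013 and 38035 in floxed and 24696 and 27812 in cKO hearts, and all 6 were detected in every group. Fibroblast markers, 6 of 6 detected, summed to between 1490 and 1704, 1717 and 2721, 2684 and 3010, and 3222 and 3853 CPM in the same order. Lung markers reached 100.4 CPM in WT replicate 3, 34.7 in KI/KI replicate 4, 28.2 and 44.6 in floxed replicates 1 and 2 and 18.9 in cKO replicate 4, and 3.26 or less in the other 7 hearts. Macrophage markers, of which 5 of 6 listed matched a symbol and were detected in every group, summed to between 143 and 210 CPM in WT, 221 and 245 in KI/KI, 77.6 and 89.1 in floxed and 86.1 and 178 in cKO hearts. The 5 mural cell markers, all detected, summed to between 590 and 661, 676 and 731, 377 and 393, and 354 and 558 CPM in the same order. Markers of fat cells, 4 genes, reached 60.4 CPM in WT replicate 3 and lay between 2.93 and 26.6 in the other adult hearts and at 1.29 or less in the newborn hearts. The part of these shifts in the Polycomb values was not tested.

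**Figure D1:**
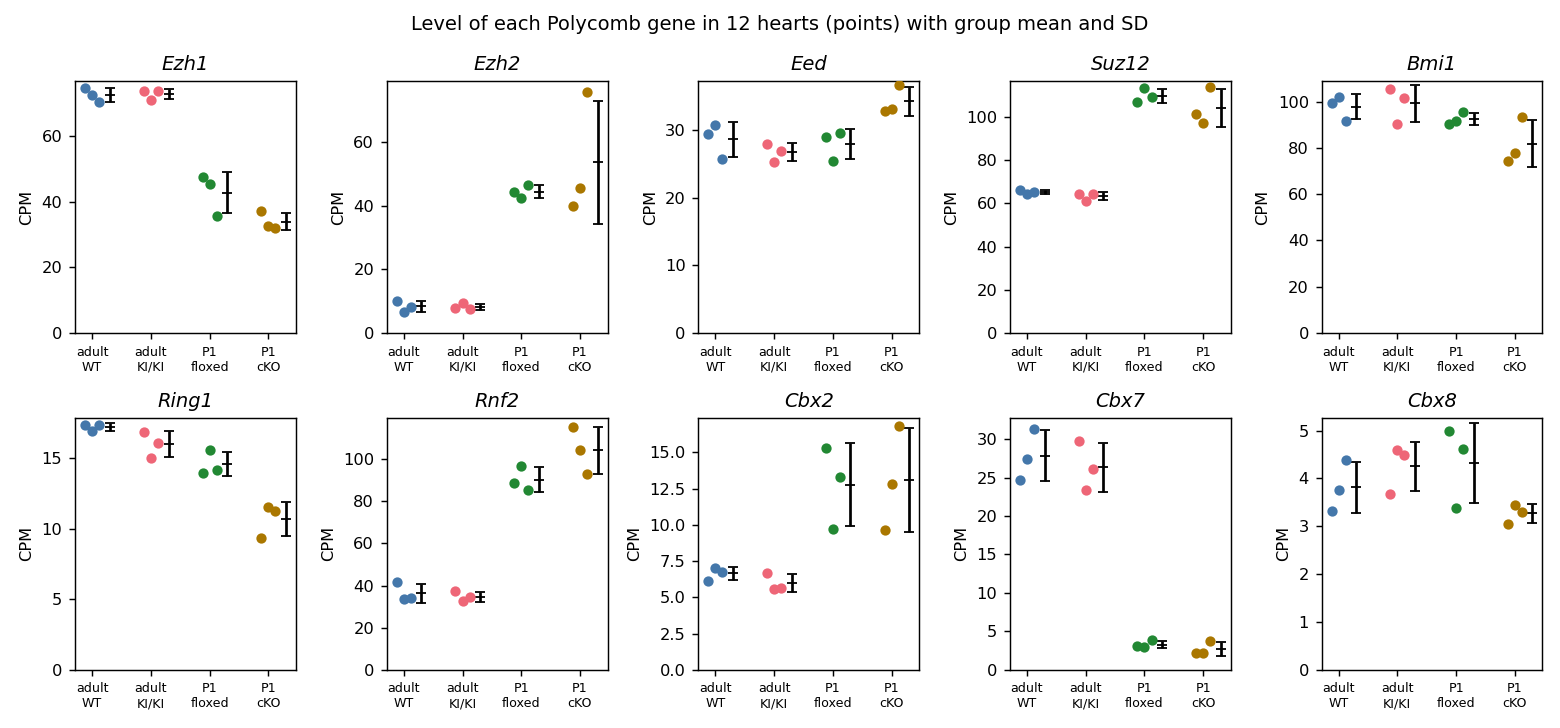
Level of each of the 10 Polycomb genes in CPM (vertical axes, all from 0) in the 3 hearts of each group (points), with the group mean and SD (bars). Ezh2, Suz12, Rnf2 and Cbx2 are low and Cbx7 and Ezh1 high in both adult groups, and the WT and KI/KI points lie close together in all 10 panels.

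The comparison of adult WT with P1 floxed hearts asks how the levels differ between a resting and a growing heart. Age, mouse line and any difference in handling cannot be told apart in it, and its hearts are the controls of the other comparisons. Ezh2 was 5.34-fold lower and Ezh1 1.69-fold higher in the adult, Cbx7 was 8.45-fold higher, and Rnf2, Cbx2 and Suz12 were 2.50-fold, 1.93-fold and 1.69-fold lower. Of the 10 genes, 7 passed an adjusted p of 0.05 in edgeR's quasi-likelihood test, 3 higher and 4 lower, at a background of 65.2% of the 15183 tested genes (31.8% higher and 33.4% lower). The groups did not overlap in the same 7 genes, where 70.8% of all tested genes did not overlap. The count of genes that differed was therefore close to that of the table at large. With a fold change above 2 as a further condition 3 genes remained, Cbx7 higher and Ezh2 and Rnf2 lower, at a background of 27.2%. By the size of the log2 fold change, Ezh2 stood above 92.5% and Cbx7 above 95.8% of the tested genes. The median log2 fold change was -0.08 over the 10 genes and -0.04 over all genes tested.

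Among the catalytic subunits of PRC2, Ezh1 was at 74.7, 72.7 and 70.5 CPM in WT hearts and at 47.5, 45.5 and 35.6 in floxed hearts. The adult values were the higher ones throughout, and floxed replicate 3 was the lowest. The log2 difference was 0.75 (SE 0.11, edgeR adjusted p = 0.000428). Ezh2 was at 10.1, 6.75 and 8.24 CPM in WT hearts and at 44.3, 42.4 and 46.4 in floxed hearts. All floxed values were more than 4 times any WT value. The log2 difference of Ezh2 was -2.42 (SE 0.13, edgeR adjusted p = 3.2e-06), and it lay between -2.56 and -2.28 when any one heart was left out. Suz12, which holds the complex together, was at 66.4, 64.5 and 65.2 CPM in WT and at 107, 113 and 109 in floxed hearts, a tight spread in both groups (log2 difference -0.76, SE 0.06, edgeR adjusted p = 1.85e-05). Eed, the subunit that reads the mark, was at 29.4, 30.7 and 25.7 CPM in WT and at 28.9, 25.4 and 29.5 in floxed hearts. These ranges overlapped, with a log2 difference of 0.02 and a 95% interval from -0.20 to 0.24.

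The ubiquitin ligases of PRC1, Rnf2 (GRCm38 chr1:151458004-151500955, minus strand) and Ring1 (chr17:34020792-34024680, minus strand), had opposite signs. Rnf2 was at 41.4, 33.4 and 34.1 CPM in WT and at 88.6, 97.0 and 85.3 in floxed hearts (log2 difference -1.32, SE 0.10, edgeR adjusted p = 1.26e-05). Ring1 was at 17.3, 16.9 and 17.3 CPM in WT and at 13.9, 15.6 and 14.2 in floxed hearts. The groups of Ring1 were apart by a narrow margin, with a log2 difference of 0.23 (SE 0.09, edgeR adjusted p = 0.0451). This call did not withstand small changes: the edgeR adjusted p of Ring1 was 0.0505 with no filter and 0.0688 with at least 10 counts in every library. It lay between 0.0765 and 0.134 without WT replicate 1, 2 or 3 or floxed replicate 1 or 3, and at 0.0328 without floxed replicate 2. Bmi1, the Pcgf protein that stimulates the ligases, was at 99.5, 102 and 91.6 CPM in WT and at 90.3, 91.5 and 95.6 in floxed hearts, with a log2 difference of 0.07 and a 95% interval from -0.08 to 0.22.

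Of the Cbx subunits, which read the methyl mark, Cbx7 (GRCm38 chr15:79915807-79971119, minus strand) changed most. Cbx2 (chr11:119022962-119031270, plus strand) and Cbx8 (chr11:119036305-119040969, minus strand) are neighbours on the chromosome. Cbx7 was at 24.7, 27.4 and 31.3 CPM in WT hearts and at 3.05, 2.98 and 3.82 in floxed hearts. No newborn heart came near the adult range, and the log2 difference was 3.08 (SE 0.15, edgeR adjusted p = 1.84e-06). Cbx2 went the other way, at 6.14, 7.02 and 6.77 CPM in WT and at 15.3, 9.69 and 13.3 in floxed hearts, with floxed replicate 2 nearest to the adults (log2 difference -0.95, SE 0.18, edgeR adjusted p = 0.00221). Cbx8 was at 3.31, 3.76 and 4.38 CPM in WT and at 4.99, 3.39 and 4.61 in floxed hearts, ranges that overlapped, with a log2 difference of -0.18 and a 95% interval from -0.64 to 0.28.

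These differences rest on the TMM scaling. Its factors were between 0.839 and 0.914 in WT and between 1.11 and 1.18 in floxed hearts, and scaling by library totals alone, an alternative added after the data were seen, moved the median of all genes to -0.44 and the calls over all genes to 18.4% higher and 54.0% lower. On that scale Cbx7 was at a log2 difference of 2.68, Ezh1 at 0.35 and Ezh2 at -2.82, all past the threshold in edgeR and in the same direction. Ring1 (-0.17), Bmi1 (-0.33) and Eed (-0.38) took the other sign, so that no direction is given for Bmi1 and Eed, and that of Ring1 holds only relative to the median gene.

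**Figure D2:**
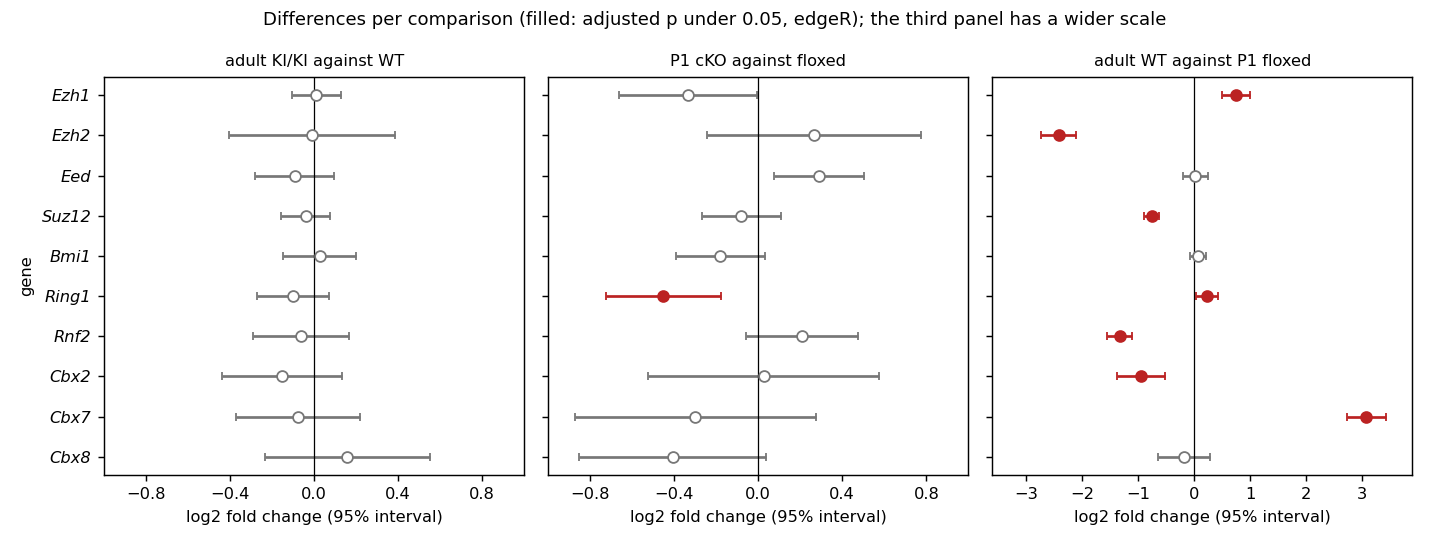
Log2 fold change (points) with its 95% interval (horizontal lines) of the 10 Polycomb genes (vertical axis) in 3 comparisons, with filled points for an edgeR adjusted p under 0.05. The first 2 panels share one scale and the third, adult WT against P1 floxed, is wider, with Cbx7 at 3.08 and Ezh2 at -2.42.

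The ratio of Ezh1 to Ezh2 counts within a library does not depend on that scaling. It was 7.39, 10.8 and 8.55 in WT hearts, 9.44, 7.61 and 9.73 in KI/KI hearts. In the P1 groups it was 1.07, 1.07 and 0.766 (floxed) and 0.930, 0.720 and 0.425 (cKO). Every adult heart had more than 7 reads of Ezh1 for each read of Ezh2, and every newborn heart about 1 or fewer. Between WT and floxed hearts the ratio differed 9.18-fold (3.20 on the log2 scale), with p = 0.1 in a two-sided exact permutation test, the smallest p that 3 against 3 hearts allow. With the 6 adult hearts set against the 6 newborn hearts, mutants included, the difference was 3.48 on the log2 scale, or 11.1-fold. It had p = 0.00216 in the same exact permutation test, the smallest it can give, and 0.00866 after Benjamini-Hochberg adjustment over 4 ratio tests. That test pools controls and mutants of each age, and age and mouse line cannot be told apart in it either. Per kilobase of exon, Ezh1 made up 80.1% ± 2.98 (SD, n = 3) of the summed Ezh1 and Ezh2 level in WT, 80.3% ± 2.16 in KI/KI, 30.8% ± 4.03 in floxed and 23.8% ± 6.88 in cKO hearts.

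Other paralogue ratios are given as descriptions. Cbx7 to Cbx2 was between 3.91 and 4.62 in WT and between 0.199 and 0.307 in floxed hearts, and Cbx7 to Cbx8 between 7.15 and 7.47 and between 0.611 and 0.878. The most abundant of these Cbx genes by reads was thus Cbx7 in the adult and Cbx2 in the newborn. Ring1 to Rnf2 was between 0.418 and 0.508 in WT and between 0.157 and 0.166 in floxed hearts, and lower, between 0.0805 and 0.121, in cKO hearts.

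**Figure D3:**
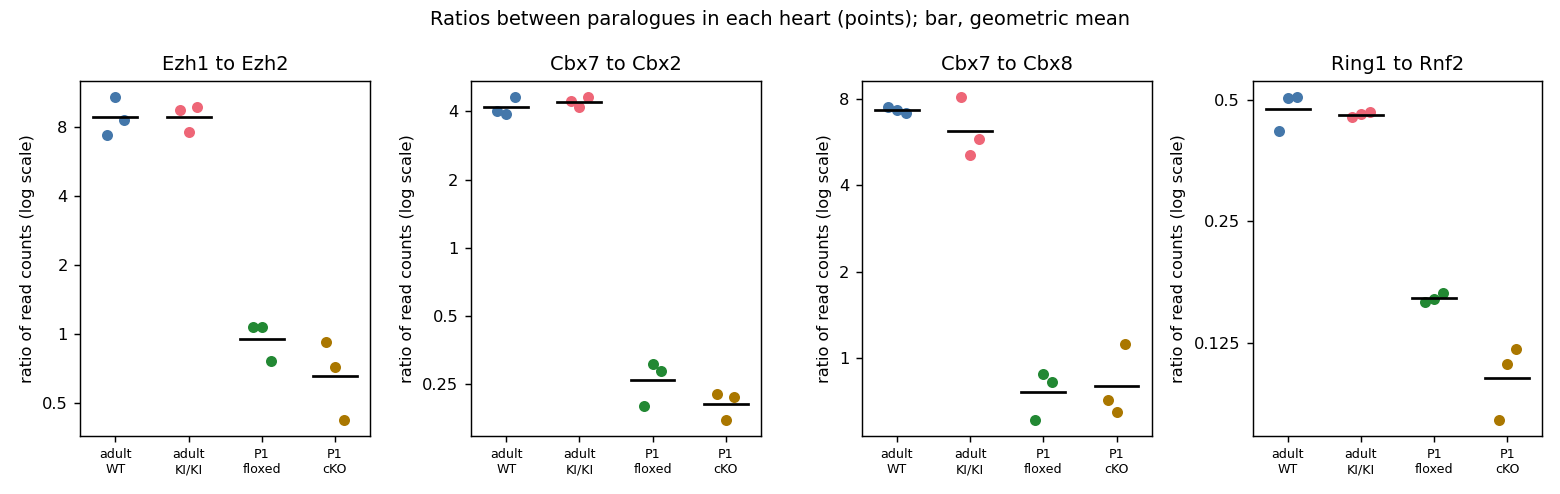
Ratios of read counts between paralogues in each heart (points, log scale) with the geometric mean of each group (bars). Ezh1 to Ezh2 lies between 7.39 and 10.8 in the 6 adult hearts and between 0.425 and 1.07 in the 6 newborn hearts, and the other 3 ratios are also higher in the adult.

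Levels of different genes were compared as CPM per kilobase of merged exons. In WT hearts the order was Bmi1 (26.4), Suz12 (15.0), Eed (13.8), Ezh1 (11.9), Rnf2 (10.9), Ring1 (8.45), Cbx7 (8.18), Ezh2 (2.98), Cbx2 (1.75) and Cbx8 (1.07). The neighbours Suz12 and Eed, Ezh1 and Rnf2, and Ring1 and Cbx7 overlapped between hearts, and the other neighbours did not. In floxed hearts the order was Rnf2 (27.0), Suz12 (25.1), Bmi1 (25.0), Ezh2 (15.8), Eed (13.5), Ring1 (7.16), Ezh1 (7.05), Cbx2 (3.36), Cbx8 (1.21) and Cbx7 (0.964), where the first 3, Ring1 and Ezh1, and Cbx8 and Cbx7 overlapped. Cbx7 was the lowest of the 10 genes in the newborn and Cbx8 in the adult. The KI/KI order was that of WT, and cKO hearts differed from floxed hearts only in the order of Ezh1 and Ring1, which overlapped in both.

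The comparison of KI/KI with WT hearts asks whether the knock-in alters Polycomb expression in the adult, 2 months after birth. None of the 10 genes passed the threshold in edgeR, at a background of 0% of 14592 tested genes, and 0 of 10 had an unadjusted p under 0.05, at a background of 16.2%. DESeq2, which called 306 genes higher and 212 lower in these hearts, called 0 of the 10 as well. Ezh1 was at 74.0, 71.1 and 73.8 CPM in KI/KI hearts and Ezh2 at 7.83, 9.34 and 7.59, inside the WT ranges given above. The 95% interval of the log2 difference ran from -0.10 to 0.13 for Ezh1 and from -0.41 to 0.39 for Ezh2. Ezh2 had 386 or fewer counts in an adult heart, and the source of its wider interval was not tested. Cbx2, with 249 or fewer, had an interval from -0.44 to 0.13. Suz12, at 64.5, 61.2 and 64.4 CPM, and Ring1, at 16.9, 15.0 and 16.0 CPM, lay below all 3 WT hearts, 2 genes of 10 that did not overlap where 21.8% of all genes did not. Their log2 differences were -0.04 (95% interval from -0.16 to 0.08) and -0.10 (from -0.27 to 0.07). For the other 6 genes the log2 difference lay between -0.15 for Cbx2 and 0.16 for Cbx8, and every interval held 0. The Ezh1 to Ezh2 ratio differed by 0.01 on the log2 scale (p = 1 in a two-sided exact permutation test).

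The comparison of cKO with floxed hearts asks the same of the cardiomyocyte deletion at P1. Of the 10 genes, 1 passed the threshold, Ring1, which was lower, at a background of 16.9% of 15317 tested genes (9.32% higher and 7.57% lower). The groups did not overlap in 2 genes, Ring1 and Eed, where 39% of all tested genes did not overlap. At an unadjusted p under 0.05 there were 3, Ring1, Eed and Ezh1, at a background of 34.6%, and with a fold change above 2 there were 0, at 4.64%.

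Ring1 was at 9.30, 11.5 and 11.2 CPM in cKO hearts, below the floxed hearts at 13.9, 15.6 and 14.2, with cKO replicate 4 the lowest. The log2 difference was -0.45 (SE 0.12, edgeR adjusted p = 0.0405), or 1.37-fold lower. The call rested on nearly the whole set of hearts: the adjusted p of edgeR was between 0.0724 and 0.131 without floxed replicate 1, 2 or 3 or cKO replicate 4 or 5, and 0.0443 without cKO replicate 6. It was 0.0519 with no filter, and with the level of Y-linked genes as a covariate the log2 difference was -0.37 (edgeR adjusted p = 0.105). DESeq2, which called 24.6% of all genes in these hearts, gave an adjusted p of 0.0107 for Ring1.

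Eed was at 32.9, 33.1 and 36.7 CPM in cKO hearts, above the floxed hearts at 28.9, 25.4 and 29.5, with a log2 difference of 0.29 (SE 0.09) that did not pass in edgeR (adjusted p = 0.0710) and passed in DESeq2 (adjusted p = 0.0398). Ezh1 was at 37.1, 32.7 and 32.2 CPM in cKO hearts, which overlapped the floxed range through floxed replicate 3, with a log2 difference of -0.33 (SE 0.14, edgeR adjusted p = 0.140). A fit of all 12 libraries, which share one estimate of the spread, called 26.1% of all genes. Beside Ring1 it called Eed higher (edgeR adjusted p = 0.0321) and Ezh1 lower (edgeR adjusted p = 0.0353). Eed shares 261 exon bases with the antisense gene E230029C05Rik, and the strand setting of the counting was not given, so that part of its reads may belong to that gene. Ezh2 and Suz12 likewise share 92 and 178 exon bases with the antisense genes Gm26625 and Gm26563.

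Ezh2 was at 39.9, 45.4 and 75.7 CPM in cKO hearts, with replicate 6 far above the others and the remaining values near the floxed hearts. Its log2 difference was 0.26 (SE 0.22, edgeR adjusted p = 0.414) and became -0.05 without cKO replicate 6. Bmi1, at 74.3, 78.0 and 93.2 CPM in cKO hearts, had a log2 difference of -0.18 (SE 0.09, edgeR adjusted p = 0.199), and without cKO replicate 6 it passed, at -0.28 (edgeR adjusted p = 0.0379). That fit called 22.1% of all genes, against 16.9% with all 6 hearts. Ezh2 thus changed sign without replicate 6, while Bmi1 kept its sign. With any one heart left out Bmi1 ranged from -0.28 to -0.13. Rnf2 (0.21), Suz12 (-0.08), Cbx2 (0.03), Cbx7 (-0.30) and Cbx8 (-0.41) did not pass. The Ezh1 to Ezh2 ratio was lower by 0.54 on the log2 scale in cKO hearts, which overlapped the floxed hearts (p = 0.2 in a two-sided exact permutation test, where 0.1 is the smallest possible). With one heart left out the difference ran from -0.79 without cKO replicate 4 to -0.23 without cKO replicate 6.

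The effects of the 2 Lemd2 alleles were compared as the KI/KI effect minus the cKO effect, in an edgeR fit of all 12 libraries. None of the 10 genes passed, at a background of 2.43% of 15729 tested genes, while 4, Eed, Ring1, Ezh1 and Cbx8, had an unadjusted p under 0.05, at a background of 20%. The largest difference relative to its error was that of Eed, at -0.39 (SE 0.13, edgeR adjusted p = 0.118, and 0.0457 in DESeq2). DESeq2 called 9.13% of all genes there.

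Cell cycle genes were set beside Ezh2, whose transcript is known to be abundant in dividing cells. In WT against floxed hearts 30 of 30 listed genes were lower in edgeR, where 33.4% of all genes were, with a median log2 difference of -2.38 that was near the -2.42 of Ezh2. Their summed level was 242, 191 and 193 CPM in WT, 210, 313 and 211 in KI/KI, 891, 871 and 1273 in floxed and 1166, 1528 and 2973 in cKO hearts. The heart with the highest sum, cKO replicate 6, was also the one with the highest Ezh2. Floxed replicate 3, with the highest sum among the floxed hearts, had the highest Ezh2 and the lowest Ezh1 of its group. In cKO against floxed hearts all 30 genes had a positive log2 difference, with a median of 0.78, and 4 passed in edgeR, beside 9.32% of all genes higher, Ccnb1 (1.99), Ccnb2 (1.38), Bub1 (1.32) and Cdk1 (1.16), which drive or guard mitosis. Without cKO replicate 6 the median was 0.34 and 7 passed in edgeR, beside 12.4% of all genes higher. Without cKO replicate 4, 12 passed, beside 6.68%, and without floxed replicate 1 none passed, beside 0.553%. In KI/KI hearts the median was 0.37, and -0.02 without KI/KI replicate 5. None of the 30 passed there in edgeR, which called 0% of all genes, against 1 in DESeq2, which called 3.56%.

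**Figure D4:**
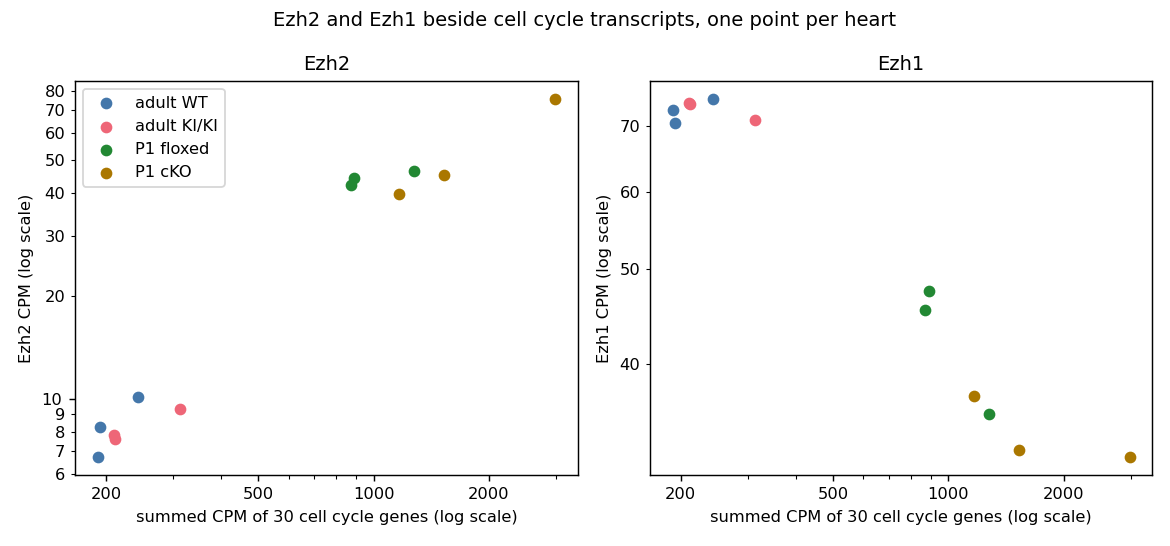
Ezh2 (left) and Ezh1 (right) in CPM against the summed CPM of 30 cell cycle genes, one point per heart and log scales on all axes. The 6 adult hearts lie at 313 CPM or less and the 6 newborn hearts at 871 or more, and cKO replicate 6, at 2973, has the highest Ezh2.

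The remaining subunits of PRC2 were listed as 9 genes, of which 7 matched a symbol and were tested. In adult WT against P1 floxed hearts 5 were lower and 1 higher in edgeR, where 33.4% of all genes were lower and 31.8% higher. Mtf2 (-1.12, SE 0.09), which guides PRC2 to CpG islands, Rbbp4 (-0.61, SE 0.07), a histone-binding subunit, and Jarid2 (-0.69, SE 0.09), a targeting subunit, fell, while Phf1 rose (0.83, SE 0.12). Phf1, a relative of Mtf2, was at 28.2, 29.1 and 32.6 CPM in WT and 17.8, 18.7 and 14.2 in floxed hearts. In cKO hearts 1 of 7 passed and was lower, where 7.57% of all genes were lower. Jarid2 was at 54.1, 60.3 and 71.1 CPM in cKO hearts, all below the floxed hearts at 96.8, 118 and 99.0 and near the WT level of 66.9, 61.6 and 66.4. Its log2 difference in cKO hearts was -0.76 (SE 0.12, edgeR adjusted p = 0.0108), larger than that of any of the 10 core genes, and its adjusted p stayed under 0.05 in 4 of the 6 fits with a heart left out, with 0.0557 as the highest. In KI/KI hearts none of the 7 passed in edgeR, which called 0% of all genes, or in DESeq2, which called 3.56%.

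The 18 other PRC1 genes were all tested. In adult WT against P1 floxed hearts 13 were lower and 3 higher in edgeR, with a median of -0.55, where 33.4% of all genes were lower and 31.8% higher. With scaling by library totals 14 were lower and 1 higher, where 54.0% of all genes were lower and 18.4% higher. Pcgf2, the closest paralogue of Bmi1, was at 7.01, 7.85 and 7.56 CPM in WT hearts and at 49.8, 56.6 and 45.9 in floxed hearts. It fell by 2.77 on the log2 scale (SE 0.11, edgeR adjusted p = 8.57e-07), beside the 0.07 of Bmi1. Cbx6 (-0.88), a further Cbx reader, Rybp (-0.97), a subunit of the Cbx-free complexes, and Kdm2b (-0.80), which brings such complexes to CpG islands, also fell. In cKO hearts 1 of the 18, Pcgf5, was higher and 1, Scmh1, lower in edgeR, beside 9.32% and 7.57% of all genes. Pcgf5, a Pcgf protein of the Cbx-free complexes, was at 65.8, 62.8 and 46.4 CPM in cKO hearts and at 29.6, 35.9 and 36.3 in floxed hearts (log2 difference 0.79, SE 0.16, edgeR adjusted p = 0.0219), but its adjusted p was above 0.05 without floxed replicate 1 or 2 or cKO replicate 5 and with the Y-linked covariate. Scmh1 (-0.44, SE 0.12, edgeR adjusted p = 0.0426) kept its call in 1 of 6 fits with a heart left out. In KI/KI hearts none of the 18 passed in edgeR with all 6 hearts, where 0% of all genes passed. Of the 18, 1, Scml4, was higher in DESeq2, which called 3.56% of all genes. It was also higher in edgeR without KI/KI replicate 4, which called 0.378%. Scml4 was named after its values were seen.

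Enzymes that oppose Polycomb, and partner proteins of such enzymes, were listed as 11 genes. In adult WT against P1 floxed hearts 6 were lower and 2 higher in edgeR, beside 33.4% and 31.8% of all genes, with Kdm6b (-0.60), a demethylase of the PRC2 mark, Asxl1 (-0.54) and Asxl3 (-1.88), partners of the enzyme that removes ubiquitin from H2A, and Nsd1 (-0.57), a methyltransferase, among the lower. With scaling by library totals 9 were lower and none higher in edgeR, beside 54.0% and 18.4% of all genes. In cKO hearts 3 of the 11 were lower, beside 7.57% of all genes. Kmt2c, a methyltransferase of active chromatin, was at 73.3, 71.2 and 69.9 CPM in cKO hearts and at 108, 97.0 and 101 in floxed hearts (log2 difference -0.51, SE 0.08, edgeR adjusted p = 0.0102). Asxl2 (-0.50, SE 0.09, edgeR adjusted p = 0.0148) and Kdm6b (-0.31, SE 0.08, edgeR adjusted p = 0.0360) were the others. Of the 6 fits with a heart left out, Kmt2c kept its call in 4, Asxl2 in 3 and Kdm6b in 1, and none of the 3 was called in edgeR without cKO replicate 5 or without floxed replicate 1. Kdm6b also lost its call with no filter and with the Y-linked covariate. In edgeR, Asxl2 was also the one listed gene whose KI/KI and cKO effects differed, by 0.50 (SE 0.10, edgeR adjusted p = 0.0370), beside 2.43% of all genes. The call was kept in 2 of 12 fits with a heart left out. DESeq2 called more in that difference. It called 2 of the 11 higher, 1 other PRC2 and 1 target gene higher and 2 other PRC1 genes lower, beside 3.94% of all genes higher and 5.19% lower. In KI/KI hearts none of the 11 passed in edgeR, which called 0% of all genes, or in DESeq2, which called 3.56%.

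Developmental genes known as Polycomb targets were listed as 52 genes, and 4 of them were at 0 in every library. At 1 CPM or more in all 3 hearts were 8 of the 52 genes in WT, 10 in KI/KI, 9 in floxed and 5 in cKO hearts, and 22, 23, 20 and 17 had no more than 3 counts in any heart of the group. The low counts leave most of the list untested. Of the 22 genes tested in cKO against floxed hearts, 3 were lower and none higher in edgeR, with a median of -0.34, beside 7.57% of all genes lower and 9.32% higher. They were Irx1 (-0.76, SE 0.21, edgeR adjusted p = 0.0474), Eya1 (-1.30, SE 0.35, edgeR adjusted p = 0.0478) and Dlx5 (-1.33, SE 0.37, edgeR adjusted p = 0.0495), all transcription regulators of early development. Each lost its call in at least 5 of the 6 fits with a heart left out. The list median in those fits ran from -0.68 without floxed replicate 3 to 0.011 without floxed replicate 2. It was -0.40 over 16 genes with at least 10 counts in every library and -0.02 over 41 genes with no filter. In KI/KI hearts none of 18 passed in edgeR, with a median of 0.20, where 0% of all genes passed. Of the 47 that DESeq2 tested 1 was higher, Tbx15, named after its values were seen, beside 2.10% of all genes. In edgeR without KI/KI replicate 4, 1 of 19 was higher, beside 0.270% of all genes. Of 20 tested in adult WT against P1 floxed hearts, 5 were lower and 2 higher in edgeR, beside 33.4% and 31.8% of all genes. Among them were Isl1, a regulator of cardiac progenitors, at 0.161, 0 and 0.354 CPM in WT and 1.96, 1.80 and 1.22 in floxed hearts, Wt1 (-1.15), a regulator of the epicardium, Irx1 (-0.73) and Tlx1 (-2.01). Isl1 and Tlx1 passed the filter on low counts only through the floxed hearts, so their direction was set by the filter. With at least 10 counts in every library, where neither is tested, 4 of 15 were lower and 2 higher in edgeR, beside 33.7% and 32.9% of all genes. On library totals 10 were lower and none higher in edgeR, beside 54.0% and 18.4% of all genes.

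**Figure D5:**
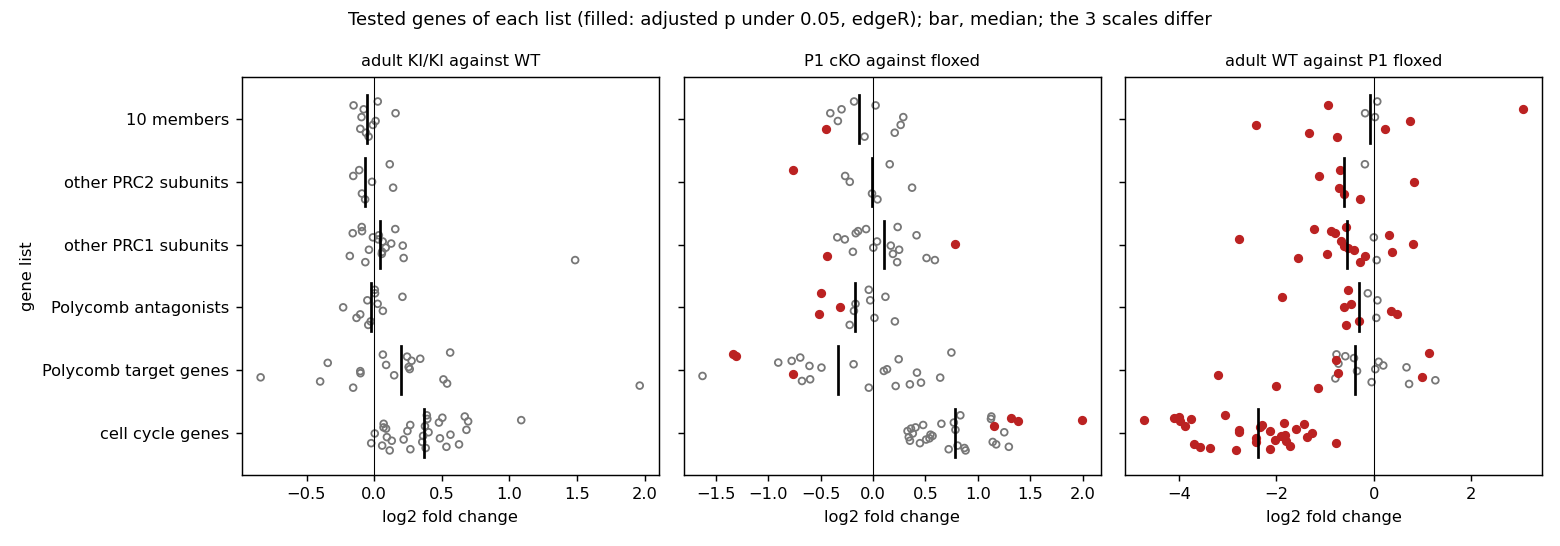
Log2 fold change of every tested gene (points) of the 10 Polycomb genes and 5 related lists (vertical axis) in 3 comparisons, filled for an edgeR adjusted p under 0.05, with the list median (bar); the 3 horizontal scales differ. In adult WT against P1 floxed hearts all 30 cell cycle genes are filled and lower, and in KI/KI against WT no point is filled.

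The genes whose pattern over the 12 hearts was most like that of Ezh1, among 13388 genes with a mean of at least 1 CPM, were Map1lc3b, Smpdl3a, Phf1, Ulk2 and Tbc1d22a. Their root mean square distance from Ezh1 on the log2 scale, after centring each gene, was between 0.0479 and 0.0932. Map1lc3b averaged 141 CPM in WT, 139 in KI/KI, 83.8 in floxed and 66.5 in cKO hearts. For Ezh2 they were Srgap1, Pask, Nrep, Mex3b and Armcx6, at distances between 0.187 and 0.213. Srgap1 averaged 8.00, 8.73, 46.1 and 43.7 CPM in the same order. The points share libraries and only 2 ages, so that any gene with a like difference by age comes near.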

How the data were processed

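Heart poly(A) RNA of 12 mice was sequenced in 4 groups of 3. The authors trimmed the reads (Trim Galore), aligned them to mm10 (STAR 2.7.2b, SAMtools 1.9) and deposited HTSeq read counts per gene symbol without normalization. The strand setting was not given in the sources used here. Differences were fitted with edgeR 4.0.16 under R 4.3.3 (TMM, filterByExpr, robust quasi-likelihood test, Benjamini-Hochberg adjustment over all tested genes, threshold 0.05), each comparison on its own 6 libraries and the difference of effects on all 12. Alternatives were DESeq2 1.42.0, limma-voom (limma 3.58.1), size factors by RLE, omission of the filter, a minimum of 10 counts, all libraries in one fit, a Y-linked covariate, a fold change above 2 and each library left out. The script was tested on simulated data. No replicates were identical. P-values measure the spread between mice. The members, the lists, written from general knowledge, and the tests were chosen with earlier results of these data known. Named are the members, Lemd2, up to 4 called genes per list and comparison with the smallest adjusted p, and the 5 genes most like Ezh1 and Ezh2. Other genes were named after their values were seen. Exon lengths came from GENCODE vM21 (GRCm38) and promoters from RefSeq. The comparisons of WT with floxed hearts share their samples with the other comparisons.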

Additional observations from a re-analysis of the deposited data

How the results depend on the processing

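No call among the 10 genes changed in KI/KI hearts under any alternative. Most alternatives called 0% of all genes there, so they could not have shown a change. Even Lemd2, whose WT and KI/KI groups did not overlap, had an edgeR adjusted p of 0.181. Genes were called there by DESeq2 (3.56% of all genes), with all 12 libraries in one fit (0.305%), and without KI/KI replicate 4 (0.378%) or 5 (0.00678%). By age, the calls of Ezh2, Rnf2 and Cbx7 were kept in all alternatives. Those of Ezh1, Suz12 and Cbx2 were kept in all but the fold threshold. In cKO against floxed hearts 1 gene, Eed, was higher with DESeq2, where 13.6% of all genes were higher. With all 12 libraries in one fit, which called 26.1% of all genes, 1 was higher and 2 lower. None was lower (0) with no filter or with the Y-linked covariate, where 5.04% and 4.78% of all genes were lower, or with a fold change above 2. Without one library the number lower was between 0 and 2, beside 0.476% to 9.70% of all genes. In WT against floxed hearts a fold change above 2 left 1 gene higher and 2 lower, where 27.2% of all genes passed. Leaving out a library gave 2 to 3 higher, beside 28.2% to 31.5% of all genes. Library totals in place of TMM, added after the data were seen, gave 7 lower, where 54.0% of all genes were lower and 18.4% higher. In the difference of the effects 1 gene was lower with DESeq2, beside 5.19% of all genes. Without one library 0 to 1 was higher, Ezh1 passing without floxed replicate 3, beside 2.07% of all genes higher.

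Small differences changed sign. With library totals, KI/KI against WT gave 0.069 for Ezh2, 0.033 for Suz12 and 0.013 for Rnf2, cKO against floxed -0.037 for Cbx2, and WT against floxed -0.38 for Eed, -0.33 for Bmi1 and -0.17 for Ring1. Limma-voom gave 0.011 for Ezh2 in KI/KI hearts. Without one library, KI/KI against WT ranged from -0.0020 to 0.028 for Ezh1, -0.15 to 0.14 for Ezh2, -0.019 to 0.088 for Bmi1, -0.12 to 0.036 for Rnf2, -0.17 to 0.027 for Cbx7 and from -0.11 to 0.16 for the log2 Ezh1 to Ezh2 ratio. In cKO hearts it ranged from -0.054 to 0.43 for Ezh2 and -0.18 to 0.19 for Cbx2, by age from -0.045 to 0.12 for Eed, and for the difference of the effects from -0.46 to 0.037 for Ezh2, -0.019 to 0.095 for Suz12 and -0.37 to 0.022 for Cbx2. Of these, Eed (edgeR adjusted p = 0.00473) and Bmi1 (edgeR adjusted p = 0.00087) passed as lower by age on library totals, Ring1 did not pass there, and the other values passed no threshold.

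WT and floxed hearts share replicate numbers but not mice. Hearts of the same number deviated from their group means with r of -0.27, -0.32 and -0.58, so the numbers were not taken as pairs. With the replicate block 2 genes were higher and 4 lower by age, beside 29.7% and 31.0% of all genes. Ring1 lost its call there (edgeR adjusted p = 0.10). The log2 Ezh1 to Ezh2 difference of 3.20 had p = 0.25 in an exact sign-flip permutation test, the smallest possible with 3 pairs.

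The Y-linked covariate was not run for adult hearts, which all held Y-linked transcripts. With 3 hearts a group, the permutation tests of the ratio cannot pass 0.05. Counts over all genes in cKO against floxed hearts ranged from 160 without floxed replicate 1 to 3463 without cKO replicate 6, against 2587 with all 6.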
